A study of Mus musculus with 12 samples.

Results

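Bspry, Chn2, Ckb and Notum are 4 protein-coding genes, of 55376 genes in the count table, whose RNA was far lower in METTL7A1 than in mock 4T1 cells in both pools of a polysome gradient. They were chosen from these same libraries, on the size of the fall between METTL7A1 and mock columns in both pools, so the lower level is described below without a test. The tests concern how the RNA of each gene was divided between the pools within each genotype, and they use the same libraries as the choice. The difference in division between genotypes equals the difference between the falls in the pools. It is therefore also described for the members without a test.

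The 4 genes have unrelated products. Bspry encodes a B-box and SPRY domain protein of epithelial cells that binds 14-3-3 proteins and the calcium channel TRPV5. Chn2 encodes beta-chimaerin, which switches off the small GTPase Rac when diacylglycerol engages its C1 domain, Ckb encodes the brain-type cytosolic creatine kinase, which moves phosphate between ATP and creatine, and Notum encodes a secreted esterase that removes the lipid from Wnt ligands and so silences them outside the cell. In a polysome gradient, mRNAs loaded with many ribosomes sediment further than free mRNAs and mRNAs with a single ribosome, so the division of an mRNA between the pools describes its ribosome loading.

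4T1 is an established mouse mammary gland cancer line. Mock cells carried the empty vector, and METTL7A1 cells carried FLAG-tagged Mettl7a1, encoding a putative methyltransferase, under the CMV promoter of the same kind of vector; the lines were stable transfectants kept under G418, and whether either was grown from a single clone is not given in the sources used here. Before lysis all cells were held for 5 min in cycloheximide at 0.1 mg/ml, which freezes ribosomes on mRNA, and gradient fractions 3 to 7 were pooled as sub-polysomal and fractions 8 to 11 as polysomal RNA. Mock replicates are lettered A to C and METTL7A1 replicates D to F in both pools, so each of the 4 groups has 3 libraries, the genotypes share 0 letters, and genotype cannot be told apart from the history of each transfected line or from a preparation day. The study describes its polysome profiles as coming from independent biological replicates, but the labels do not say that the sequenced libraries of a group were separate cultures, so p-values measure only the spread between these libraries, which may be technical.

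Depth limits the low values. Library totals ran from 1817520 counts (mock sub-polysomal A) to 6966156 counts (mock polysomal C), and 3 counts in a library correspond to between 0.431 and 1.65 CPM (counts scaled to a common library total). Levels are given as CPM scaled with edgeR's TMM factors, and intervals from counts cover counting error only. All 4 genes passed the filter of at least 1 CPM in at least 3 libraries, which left 12224 genes for testing. Before TMM scaling, the scale of the filter, each had at least 1 CPM in 6 of 6 mock libraries, whereas among the 6 METTL7A1 libraries this held in 0 for Bspry, 3 for Chn2, 6 for Ckb and 5 for Notum. Bspry therefore passed through the mock libraries alone.

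The transfected gene separated the genotypes. Mettl7a1 had 5, 4 and 16 counts in mock sub-polysomal A, B and C and 24, 22 and 23 counts in mock polysomal A, B and C. In the METTL7A1 libraries D, E and F it had 1191, 1146 and 989 counts in sub-polysomal and 2252, 2436 and 1621 counts in polysomal RNA. No METTL7A1 library came near a mock library. The log2 change of Mettl7a1 was 6.60 (SE 0.24, adjusted p = 5.43e-13, edgeR's quasi-likelihood test with Benjamini-Hochberg adjustment) in polysomal RNA. The reference gene Actb, which encodes beta-actin, had a log2 change of -0.10 (SE 0.16) in polysomal and -0.26 (SE 0.16) in sub-polysomal RNA, and neither passed the test.

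Bspry (ENSMUSG00000028392) lies on the plus strand of chromosome 4 of GRCm38 (chr4:62480053-62497298) and has 6 exons of 2167 bases in all. It had 45, 134 and 169 counts in mock sub-polysomal A, B and C and 154, 153 and 169 counts in mock polysomal A, B and C. In METTL7A1 cells it had 0, 1 and 3 counts in sub-polysomal D, E and F and 4, 5 and 0 counts in polysomal D, E and F. The 6 METTL7A1 libraries held 13 Bspry counts in all against 824 in the 6 mock libraries, and the genotypes did not overlap in either pool. In CPM, mock sub-polysomal A, B and C had 25.4, 42.1 and 33.3, and mock polysomal A, B and C had 21.0, 21.0 and 20.9. The METTL7A1 values were 0, 0.248 and 0.716 CPM in sub-polysomal and 0.547, 0.641 and 0 CPM in polysomal D, E and F, all below 1 CPM and far below the lowest mock value of 20.9.

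Chn2 (ENSMUSG00000004633) lies on the plus strand of chromosome 6 (chr6:54039573-54301810), where its 15 merged exons of 4731 bases are spread over 262238 bases. It had 10, 41 and 67 counts in mock sub-polysomal A, B and C and 64, 66 and 69 counts in mock polysomal A, B and C. METTL7A1 cells had 2, 8 and 7 counts in sub-polysomal and 6, 7 and 4 counts in polysomal D, E and F. Every METTL7A1 library thus kept some Chn2 reads, and the lowest mock library was the shallowest of the series, mock sub-polysomal A. The mock libraries A, B and C stood at 5.64, 12.9 and 13.2 CPM in sub-polysomal and 8.73, 9.06 and 8.55 CPM in polysomal RNA. The METTL7A1 libraries D, E and F stood at 0.662, 1.98 and 1.67 CPM in sub-polysomal and 0.821, 0.898 and 0.673 CPM in polysomal RNA. The gap was narrowest in sub-polysomal RNA, where the lowest mock value was 2.84 times the highest METTL7A1 value.

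Ckb (ENSMUSG00000001270), on the minus strand of chromosome 12 (chr12:111669361-111672338), is the shortest of the 4, with 8 exons of 1472 bases. It had 17, 33 and 69 counts in mock sub-polysomal and 125, 64 and 119 counts in mock polysomal A, B and C. The METTL7A1 libraries D, E and F had 6, 11 and 10 counts in sub-polysomal and 13, 8 and 7 counts in polysomal RNA. Ckb varied most between mock polysomal replicates, with library B below all 3 mock sub-polysomal libraries after scaling. In CPM the mock values of A, B and C were 9.58, 10.4 and 13.6 in sub-polysomal and 17.0, 8.79 and 14.7 in polysomal RNA. The METTL7A1 values of D, E and F were 1.99, 2.73 and 2.39 CPM in sub-polysomal and 1.78, 1.03 and 1.18 CPM in polysomal RNA. Even mock polysomal B lay 4.94 times above the highest METTL7A1 polysomal library.

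Notum (ENSMUSG00000042988), on the minus strand of chromosome 11 (chr11:120653788-120660829), has 12 exons of 2253 bases. It had 21, 31 and 44 counts in mock sub-polysomal and 133, 101 and 112 counts in mock polysomal A, B and C. In METTL7A1 cells it had 8, 6 and 5 counts in sub-polysomal and 12, 18 and 9 counts in polysomal D, E and F. Notum was the member with most METTL7A1 reads, 58 in all, against 442 in mock. The mock libraries A, B and C had 11.8, 9.74 and 8.67 CPM in sub-polysomal and 18.1, 13.9 and 13.9 CPM in polysomal RNA. The METTL7A1 libraries D, E and F had 2.65, 1.49 and 1.19 CPM in sub-polysomal and 1.64, 2.31 and 1.51 CPM in polysomal RNA. All mock polysomal values lay above all mock sub-polysomal values, and no METTL7A1 value reached a mock value.

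**Figure D1:**
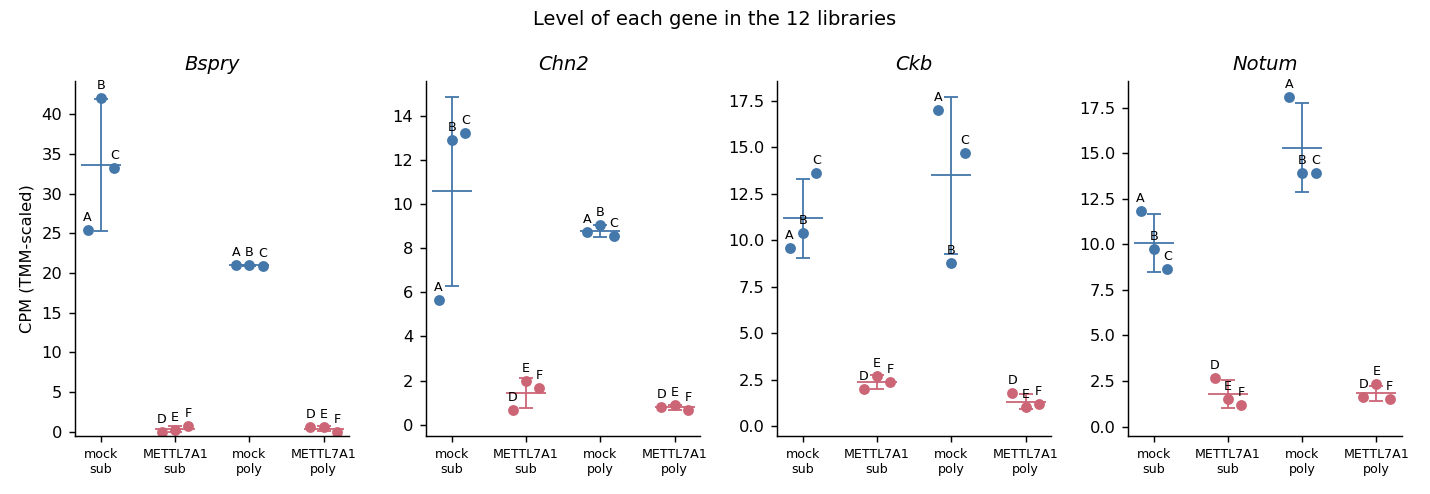
Level of Bspry, Chn2, Ckb and Notum in each of the 12 libraries, in CPM scaled with TMM factors on a linear axis that differs between panels. Points are libraries with their replicate letter, horizontal bars are means and whiskers are SDs (n = 3); every METTL7A1 library (red) lies below every mock library (blue) of the same pool.

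The description "nearly lost" held for Bspry but was too strong for the others. In METTL7A1 cells the mean CPM of Bspry was 0.957% of the mock mean in sub-polysomal and 1.89% in polysomal RNA. Chn2 kept 13.6% in sub-polysomal and 9.08% in polysomal RNA. Ckb kept 21.2% in sub-polysomal and 9.81% in polysomal RNA, and Notum kept 17.6% and 11.9%. Exact 95% counting intervals were taken from the summed counts of each group. The sub-polysomal intervals were 0.278% to 2.65% for Bspry, 7.24% to 21.5% for Chn2, 12.8% to 30.9% for Ckb and 10.2% to 29.1% for Notum. They leave out the spread between libraries, and as the size of the fall chose the genes, they are a description and not a test. The intervals of Chn2, Ckb and Notum overlapped each other in both pools. Whether fewer cells expressed a gene or each cell held less of its RNA cannot be told apart in these bulk libraries.

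**Figure D2:**
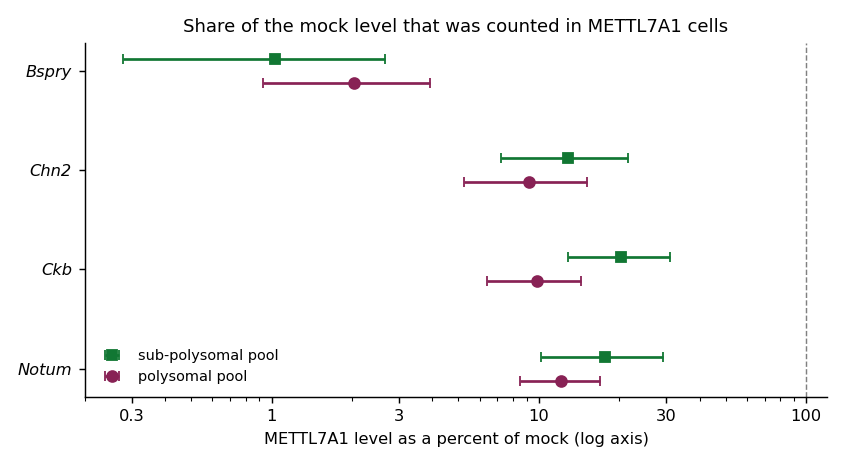
Level in METTL7A1 cells as a percent of mock, on a log axis, from the summed counts of 3 libraries per group, with exact 95% intervals that cover counting error only. Squares are sub-polysomal and circles polysomal RNA, and the dashed line marks 100%; the interval of Bspry ends at 2.65% and 3.90%, and those of the other genes begin at 5.26% or above.

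The order of the genes changed between genotypes when levels were compared per kilobase of exon. In mock polysomal RNA, Bspry stood at 9.68 ± 0.0155 and Ckb at 9.19 ± 2.90 CPM per kb (SD, n = 3), which did not differ beyond their spread. Notum, at 6.79 ± 1.09 CPM per kb (SD, n = 3), lay below Bspry and within the spread of Ckb, whose replicate B stood at 5.97 CPM per kb. Chn2 was lowest at 1.86 ± 0.0546 CPM per kb (SD, n = 3). In METTL7A1 polysomal RNA, Ckb at 0.902 ± 0.270 and Notum at 0.808 ± 0.189 CPM per kb (SD, n = 3) were level within their spread and above the others. Bspry, at 0.183 ± 0.160 CPM per kb, then lay beside Chn2, at 0.169 ± 0.0242 CPM per kb (SD, n = 3). Sub-polysomal RNA of mock cells had Bspry highest, at 15.5 ± 3.87, then Ckb at 7.60 ± 1.45, Notum at 4.48 ± 0.714 and Chn2 at 2.24 ± 0.905 CPM per kb (SD, n = 3). In METTL7A1 sub-polysomal RNA the order was Ckb at 1.61 ± 0.252, Notum at 0.789 ± 0.342, Chn2 at 0.304 ± 0.146 and Bspry at 0.148 ± 0.168 CPM per kb (SD, n = 3), of which the last pair overlapped. None of the genes was abundant before the change: per kilobase, the mock polysomal level of Bspry lay at the 59.2 percentile of the 12224 tested genes, Ckb at the 58.2, Notum at the 51.6 and Chn2 at the 25.9 percentile.

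The fitted log2 changes that chose the genes are given as values alone. In polysomal RNA they were -5.55 for Bspry, -3.41 for Chn2, -3.33 for Ckb and -3.03 for Notum. In sub-polysomal RNA they were -6.50 for Bspry, -2.89 for Chn2, -2.26 for Ckb and -2.50 for Notum. A call required an adjusted p under 0.01 together with a log2 change of more than 1.5 in size, and by this rule 1.15% of tested genes were lower in polysomal RNA, 1.26% in sub-polysomal RNA and 0.695% (85 genes, all 4 members among them) in both; as the same contrast chose the members, nothing is read from their being there. The 1214 genes whose METTL7A1 libraries all lay below all mock libraries in both pools made up 9.93% of tested genes and likewise included all 4 by choice. Averaged over the pools, the last member, Notum, had a log2 change of -2.77, just beyond the next protein-coding genes with a mean of at least 5 CPM. Sorcs2, a sorting receptor gene, stood at -2.73, Mgp, which encodes matrix Gla protein, at -2.63, the acyl-CoA synthetase gene Acsl6 at -2.57 and the imprinted gene Mest at -2.49. Sorcs2 had 850 counts in mock and 124 in METTL7A1 libraries, a fall in counts much like that of Notum, so the end of the list at 4 genes marks no gap.

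The limit on expression and the gene type also shaped the choice. Among protein-coding genes called lower in both pools, 35 with a mean below 5 CPM had a larger log2 change than Notum, and 29 of the 79 reached 5 CPM. The long intergenic non-coding RNA Lncenc1 stood at -3.03 averaged over the pools, between Chn2 and Ckb, and was left out because it encodes no protein. With Actb as the scale in place of TMM, the median log2 change of all tested genes was 0.26 in sub-polysomal and 0.08 in polysomal RNA, and the genes called lower in sub-polysomal RNA went from 154 of 337 calls (45.7%) to 88 of 447 (19.7%). Under that scaling Bspry kept 1.11%, Chn2 16.5%, Ckb 25.2% and Notum 21.1% of mock in sub-polysomal RNA.

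**Figure D3:**
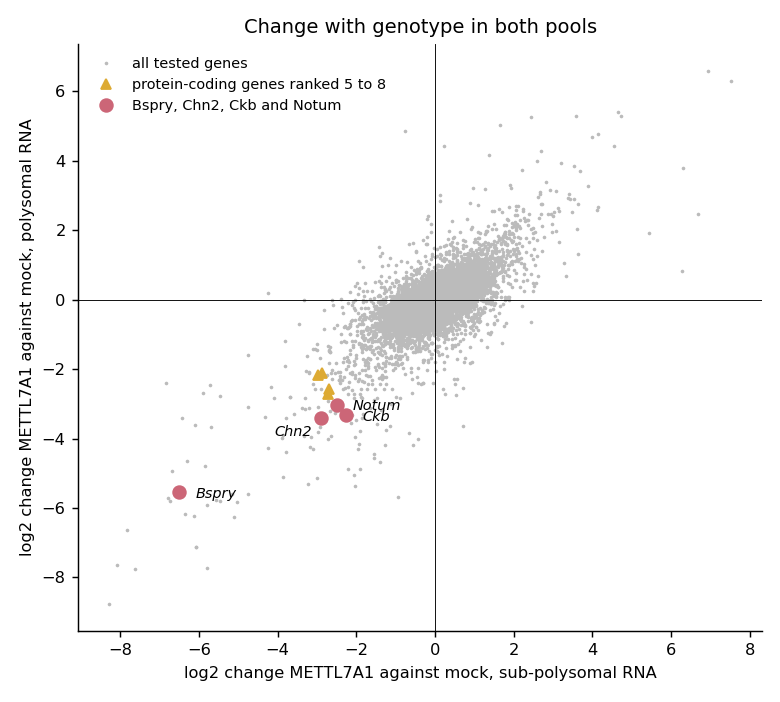
Log2 change between METTL7A1 and mock cells in sub-polysomal RNA (horizontal axis) and polysomal RNA (vertical axis) for the 12224 tested genes, each a grey point. The 4 members (red) lie in the lower left, Bspry apart from the others, and the protein-coding genes ranked 5 to 8 (triangles) lie next to Notum; grey points further out include 35 protein-coding genes with a mean below 5 CPM.

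The division between the pools was first tested in mock cells, where counts were ample. The pool ratio is polysomal over sub-polysomal RNA, relative to the average gene. Bspry was weighted to the sub-polysomal pool, with a log2 ratio of -0.70 (SE 0.21, 95% confidence interval -1.14 to -0.27, adjusted p = 0.00936, edgeR's quasi-likelihood test with Benjamini-Hochberg adjustment). Notum was weighted to the polysomal pool, with a log2 ratio of 0.65 (SE 0.22, 95% confidence interval 0.20 to 1.10, adjusted p = 0.0191, same edgeR test with Benjamini-Hochberg adjustment). In CPM, every mock polysomal library lay below every mock sub-polysomal library for Bspry and above every one for Notum, whichever libraries are paired. The share of tested genes whose mock pools separate in this way was not counted, so this is a description only. Chn2 had a log2 ratio of -0.36 (SE 0.25, adjusted p = 0.234) and Ckb 0.23 (SE 0.24, adjusted p = 0.456) in edgeR's quasi-likelihood test with Benjamini-Hochberg adjustment, and neither passed. With libraries matched by letter, which may not mark a shared lysate, replicate A stood apart for both, with a ratio of 1.55 for Chn2 against 0.703 and 0.647 in B and C, and of 1.78 for Ckb against 0.847 and 1.08.

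By the rule for calls, 0 of the 4 genes were called between the mock pools, where 7.55% of tested genes were. At an adjusted p below 0.05 with no limit on the log2 ratio, 2 of 4 passed, Bspry and Notum, beside 47.0% of tested genes. Neither pass held under all alternatives. The adjusted p of Bspry was 0.124 without mock replicate B and ran from 0.00191 to 0.124 over 13 alternatives to the main edgeR quasi-likelihood test, all with Benjamini-Hochberg adjustment. That of Notum was 0.0713, 0.0564 and 0.0978 without mock replicate A, B and C in turn, 0.0670 with DESeq2 and 0.0525 with Actb scaling, and ran from 0.0109 to 0.0978 over the same 13 alternatives to edgeR's quasi-likelihood test with Benjamini-Hochberg adjustment.

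In METTL7A1 cells the same ratios rested on few reads. Bspry had 9 counts in the polysomal and 4 in the sub-polysomal libraries, a ratio of 1.20 with an exact 95% counting interval of 0.335 to 5.34. Chn2 had 17 counts in either pool, a ratio of 0.534 after scaling (counting interval 0.256 to 1.11). Ckb had 28 and 27 counts, a ratio of 0.554 (counting interval 0.315 to 0.976), and Notum 39 and 19 counts, a ratio of 1.10 (counting interval 0.618 to 2.01). Equal counts give a ratio below 1 here after scaling for library depth and TMM factors. In the fit, the log2 ratios were -0.88 (SE 0.51, adjusted p = 0.141) for Chn2, -0.84 (SE 0.43, adjusted p = 0.104) for Ckb and 0.12 (SE 0.39, adjusted p = 0.812) for Notum, by edgeR's quasi-likelihood test with Benjamini-Hochberg adjustment. None of these 3 was called, beside 12.1% of tested genes, and none had an adjusted p below 0.05, beside 59.3% of tested genes. With Actb scaling the adjusted p of Ckb was 0.0421, within 0.0421 to 0.427 over 13 alternatives to edgeR's quasi-likelihood test with Benjamini-Hochberg adjustment. For Bspry, which passed the filter through mock libraries alone, no test is given, as its position between the pools of METTL7A1 cells was not measurable at this depth: 2 of its 3 replicates had 0 counts in 1 pool, and its log2 ratio was -0.44 without METTL7A1 replicate E and 1.91 without replicate F.

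The shift to polysomes, the log2 pool ratio in METTL7A1 cells minus that in mock cells, asks whether the remaining RNA was divided differently. It was -0.52 (SE 0.55, 95% confidence interval -1.67 to 0.64) for Chn2 and -0.53 (SE 0.46, -1.48 to 0.42) for Notum. Ckb had the shift that was largest beside its error, -1.07 (SE 0.50, 95% confidence interval -2.11 to -0.03), away from polysomes. This interval is not adjusted for the number of genes. As the members were chosen on the falls that make up the shift, no test is read from it. With libraries matched by letter, the Ckb ratio was 0.895, 0.376 and 0.493 in METTL7A1 D, E and F and 1.78, 0.847 and 1.08 in mock A, B and C, and these ranges overlap. Of all tested genes 0% were called for the shift. At an unadjusted p below 0.05 edgeR gave 1912 genes, and DESeq2 and limma-voom also called 0. For Bspry the fitted shift of 0.95 (SE 0.94, 95% confidence interval -1.02 to 2.92) rests on the same few counts, ran from 0.27 to 2.61 when single replicates were left out, and is given without a test. The intervals of Bspry, Chn2 and Ckb reach beyond 1.5 on the log2 scale, and that of Notum ends near it, at -1.48. A shift of about that size was thus not excluded at this depth, nor do these values show that the division stayed the same. Without single replicates the shift ran from -0.81 to -0.28 for Chn2, from -1.44 to -0.76 for Ckb and from -0.84 to -0.11 for Notum.

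**Figure D4:**
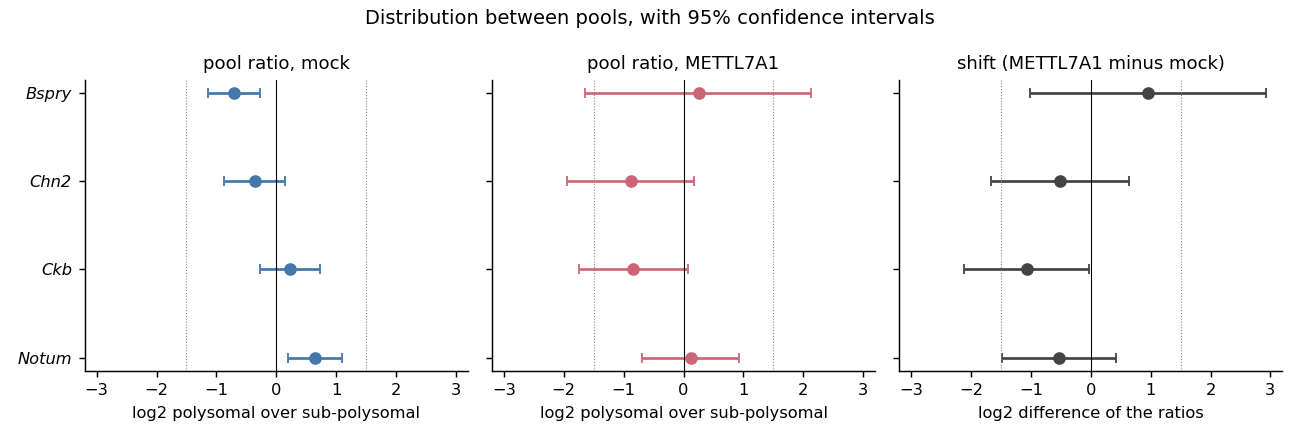
Log2 ratio of polysomal over sub-polysomal RNA in mock cells (left), in METTL7A1 cells (centre) and the difference of the ratios (right) for Bspry, Chn2, Ckb and Notum, with 95% confidence intervals from edgeR's fit of 12 libraries. Dotted lines mark a log2 value of 1.5 either way; the intervals widen in METTL7A1 cells, most for Bspry, and in the right panel only that of Ckb ends short of 0, at -0.03.

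The 4 genes lie on 4 chromosomes and share few features. Bspry, Ckb and Notum are rich in G and C, with 57.4%, 60.0% and 59.5% in their longest coding transcript (the 86.8, 95.5 and 94.2 percentiles of 10842 tested protein-coding genes), whereas Chn2 has 45.2% (the 23.9 percentile, where the median gene has 50.2%). Exon length ran from the 17.9 percentile of tested genes for Ckb to the 74.8 for Chn2. The RefSeq promoter table (GRCm38.p6, 250 bases before to 50 after the start) held an entry for 3 of the 4 genes, Bspry, Chn2 and Ckb. Their 300 bases had 62.0%, 73.3% and 63.0% G and C, where the median of 32851 promoters is 52.7%. Both strands were searched for 6 motifs, and because the genes were low together, 3 stretches of Bspry and Ckb that hold a match upstream of the start are shown, 5′ to 3′ in the direction of the gene, with the match in capitals.
Ckb, chr12:111672350-111672379, minus strand, bases -41 to -12: ggaatgaatgggcTATAAAtagccgCCAAT
Bspry, chr4:62479909-62479938, plus strand, bases -153 to -124: ctctgacacaacacaacttaatccTATAAA
Bspry, chr4:62479998-62480027, plus strand, bases -64 to -35: gcctgggaggggcgaagccagagaGGGCGG
The capitals in Ckb are the TATA box letters TATAAA, which begin at -28, and the CCAAT box letters CCAAT, which begin at -16 and occur a further time at -46. Bspry has TATAAA at -129 and the GC box letters GGGCGG at -40, and CACCTG, the letters of an E-box, on the opposite strand at its start. TATAAA occurs in 13.6%, CCAAT in 37.4%, GGGCGG in 35.7% and CACCTG in 20.2% of all promoters of the table. The TCF/LEF core (CTTTG followed by AA, AT, TA or TT), present in 16.9% of promoters, and the Grainyhead-like letters AACCGGTT, in 0.146%, were found in none of the 3 windows, and the Chn2 window held none of the 6 motifs. A match is a description of letters, and 0 motifs were shared by all 3 windows.

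Genes whose log2 CPM followed a member most closely by Pearson correlation over the 12 libraries are given as a description. They were taken from 9454 tested genes with a mean of at least 5 CPM. The libraries share their genotype and pool, so any gene that differs between genotypes can score high. By Spearman correlation only 2 of the 12 genes, Dtnb and Prkaca, stayed among the 3 nearest to their member. Bspry was closest to Mipol1 (Pearson r = 0.972, Spearman rho = 0.844), Mest (r = 0.970, rho = 0.834) and the ribosome rescue gene Hbs1l (r = 0.970, rho = 0.764). Chn2 was closest to Bspry (r = 0.966, rho = 0.907), Lncenc1 (r = 0.966, rho = 0.874) and the crystallin-related gene Cryl1 (r = 0.966, rho = 0.853). Ckb was closest to Chn2 (r = 0.957, rho = 0.811), the secreted Wnt antagonist gene Sfrp1 (r = 0.954, rho = 0.860) and the dystrobrevin gene Dtnb (r = 0.953, rho = 0.916). Notum was closest to Susd1 (r = 0.976, rho = 0.923), the protein kinase A subunit gene Prkaca (r = 0.975, rho = 0.972) and the transcription factor gene Myb (r = 0.973, rho = 0.853). Closeness in pattern was not closeness in size: Hbs1l had log2 changes of -1.01 and -0.97 and Prkaca of -0.66 and -0.46 in polysomal and sub-polysomal RNA. Among the members themselves r ran from 0.882 (Chn2 with Notum) to 0.966 (Bspry with Chn2) over the same 12 libraries.

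The tested genes nearest to the members were compared in the same way. Of the 40 nearest tested genes, 5 on either side of each member, 0 were called between genotypes in polysomal and 1 in sub-polysomal RNA, where 2.13% and 2.76% of all tested genes were called. The one called was Wdr31, a WD repeat gene 9.17 kb from Bspry on the opposite strand. Wdr31 had 11, 21 and 25 counts in mock sub-polysomal A, B and C and 2, 6 and 2 counts in METTL7A1 sub-polysomal D, E and F. These libraries did not overlap in scaled level, with a log2 change of -2.67 (SE 0.48, adjusted p = 4.04e-04, edgeR's quasi-likelihood test with Benjamini-Hochberg adjustment). In polysomal RNA its adjusted p was 0.0121 in the same edgeR test with Benjamini-Hochberg adjustment, which did not pass the limit of 0.01. Hdhd3, a hydrolase-domain gene 1.71 kb from Bspry on its other side, had log2 changes of -0.63 (SE 0.23) in polysomal and -0.68 (SE 0.30) in sub-polysomal RNA and was not called.

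The nearest tested genes to Chn2 were the transcription factor gene Creb5, 339.0 kb away, and the secernin gene Scrn1, 204.0 kb away on the other side. Creb5 had log2 changes of -0.30 (SE 0.29) and -0.26 (SE 0.38) in the polysomal and the sub-polysomal pool, and Scrn1 of -0.57 (SE 0.19) and -1.02 (SE 0.29), none of them called. Ckb lies 13.1 kb from the kinase gene Mark3 (log2 changes -0.22, SE 0.12, and -0.21, SE 0.12) and 5.77 kb from the tRNA methyltransferase subunit gene Trmt61a (0.05, SE 0.14, and 0.74, SE 0.14). Notum lies between the proline synthesis gene Pycr1 (10.0 kb; 0.06, SE 0.37, and 0.59, SE 0.56) and Aspscr1, a tether of glucose transporter vesicles (12.2 kb; -0.21, SE 0.15, and 0.66, SE 0.16). The 10 neighbours of Notum had median log2 changes of 0.03 (polysomal) and 0.62 (sub-polysomal, from 0.00 to 0.84), so none lay below 0 in the sub-polysomal pool, where Notum was lower. Those of Bspry had medians of -0.47 and -0.43, those of Chn2 of -0.30 and -0.41 and those of Ckb of -0.21 and -0.16, where all tested genes had -0.01 and 0.00. Trmt61a and Aspscr1 had sub-polysomal changes with adjusted p = 8.88e-04 and 0.00396 (edgeR's quasi-likelihood test with Benjamini-Hochberg adjustment) that were too small for a call. Other neighbours likewise passed 0.01 in sub-polysomal RNA without a call. Prpf4 (-0.68), Pole3 (-0.72), Tax1bp1 (-0.70) and Bag5 (-0.51) were lower, and Mafg (0.65), Sirt7 (0.84) and Pcyt2 (0.70) were higher. In polysomal RNA Apopt1 (-0.65) did so.

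Genes that overlap a member in the annotation held almost no reads. Chn2 overlaps 9530036M11Rik, Gm15526, Gm15527 and 9130019P16Rik, all on the opposite strand and all at 0 counts in the 12 libraries. Notum overlaps the antisense genes Myadml2os, at 0 counts, and Notumos, with 2 counts in mock polysomal B. The sources used here do not state how strand was treated in counting, so reads of such pairs could not be told apart otherwise. Of the close relatives, the muscle and mitochondrial creatine kinase genes Ckm, Ckmt1 and Ckmt2 had 0 counts in all 12 libraries, which leaves Ckb as the creatine kinase gene with reads in these cells. Chn1, the alpha-chimaerin gene, had between 106 and 392 counts per library. Its log2 change was -0.34 (SE 0.17, adjusted p = 0.182) in polysomal and -0.70 (SE 0.16, adjusted p = 0.00344) in sub-polysomal RNA by edgeR's quasi-likelihood test with Benjamini-Hochberg adjustment, neither of which was a call.

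**Figure D5:**
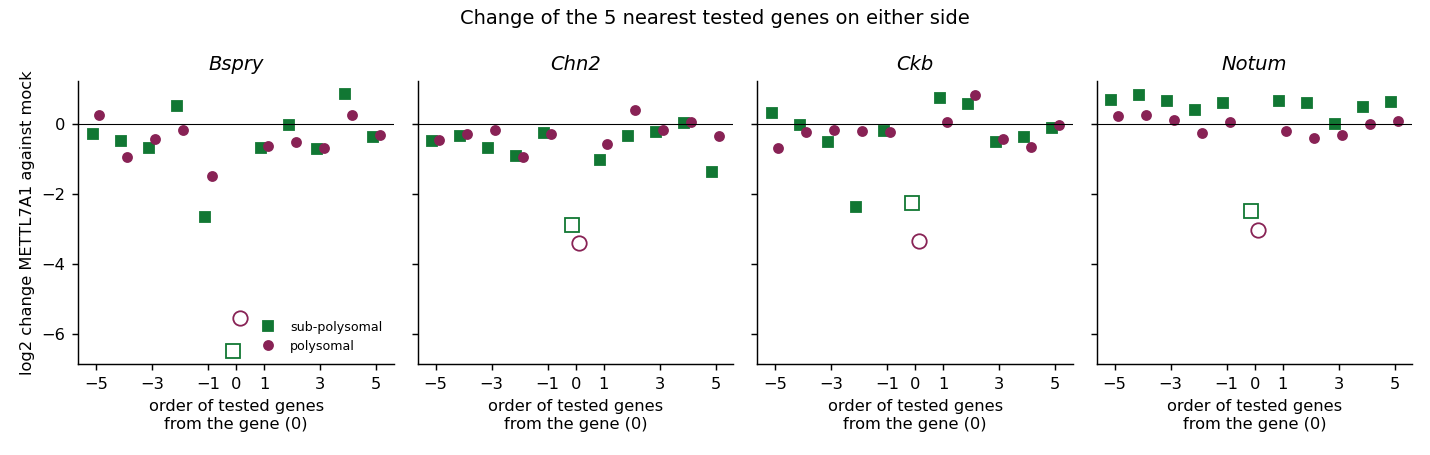
Log2 change between METTL7A1 and mock cells of the 5 nearest tested genes on either side of each member, in order along the chromosome, with the member at 0 as an open symbol. Squares are sub-polysomal and circles polysomal RNA; in sub-polysomal RNA Wdr31 next to Bspry (-2.67) and a little-expressed non-coding gene near Ckb (-2.37) lie lowest, and the neighbours of Notum lie at or above 0.

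The pathways around each gene were followed in 16 lists of 258 genes in all, of which 166 were tested. Among list genes the polysomal calls were 2 up and 1 down and the sub-polysomal calls 4 up and 1 down, beside 2.13% and 2.76% of tested genes called either way. These include Wnt10b (up) and Nkd2 (down) in both pools, which passed the filter through the genotype where they were high. The 1 call down in each pool is Nkd2, so the counts are not read as a result about the lists. At an adjusted p below 0.05 with no limit, 27 were up and 12 down in the polysomal pool, and 38 up and 18 down in the sub-polysomal pool, where 18% and 31.4% of tested genes passed. List medians are log2 changes in polysomal and then sub-polysomal RNA and stand beside -0.01 and 0.00 for all tested genes.

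For Bspry, the epithelial list (32 of 34 genes tested) had medians of 0.35 and 0.20, with 0 calls in polysomal and 2 in sub-polysomal RNA, both higher. At an adjusted p below 0.05 with no limit, 12 were higher and 2 lower in polysomal RNA. In sub-polysomal RNA 11 were higher and 3 lower, namely Esrp1 (-0.65), Epcam (-0.71) and Prom2 (-0.86), with log2 changes too small for a call. The tight junction gene Cldn4 went from 326.0 ± 37.1 to 1150.0 ± 262.0 CPM (SD, n = 3) in sub-polysomal RNA, a log2 change of 1.82 (SE 0.18, adjusted p = 1.51e-06, edgeR's quasi-likelihood test with Benjamini-Hochberg adjustment). The membrane serine protease gene Prss8 went from 7.59 ± 1.83 to 30.6 ± 8.80 CPM (SD, n = 3) in the same pool, a log2 change of 1.91 (SE 0.23, adjusted p = 1.29e-05, same edgeR test with Benjamini-Hochberg adjustment). In polysomal RNA Cldn4 (1.40, adjusted p = 1.99e-05) and Prss8 (1.25, adjusted p = 1.55e-04) were also higher in the same edgeR test with Benjamini-Hochberg adjustment. These log2 changes were too small for a call. The mesenchymal list (7 of 15 tested) had medians of -0.24 and -0.37 with 0 calls, and the 14-3-3 and TRPV list (7 of 9 tested) -0.08 and -0.39 with 0 calls; Trpv5 and Trpv6 were not among the genes tested, so these medians are those of 14-3-3 genes alone.

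For Chn2, the Rac GTPases (4 of 5 tested) had medians of -0.07 and 0.15, their exchange factors (15 of 22) 0.03 and 0.11, other Rac GTPase-activating proteins (11 of 17) 0.07 and 0.19, Rac effectors (14 of 16) -0.18 and -0.19, and diacylglycerol-binding C1 domain proteins (9 of 20) -0.08 and -0.08. None of these lists had a call in either pool. For Ckb, creatine supply (2 of 6 tested, as 3 kinases had no reads and Gatm was not tested) had medians of 0.18 and 0.72. Its 2 tested genes lay apart, Slc6a8 at 0.52 and 1.04 and Gamt at -0.15 and 0.40. Adenylate kinases and other phosphotransfer enzymes (9 of 15) had medians of -0.01 and 0.22, and both lists again had 0 calls. With Actb scaling the medians near 0 that changed sign were those of 14-3-3 genes (0.02), Rac GTPases (0.03), C1 domain proteins (0.01) and adenylate kinases (0.07) in polysomal RNA and those of Rac effectors (0.05) and C1 domain proteins (0.17) in sub-polysomal RNA. This scaling moves all genes alike, to medians of 0.08 and 0.26 for all tested genes, so nothing about the lists is read from these signs.

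For Notum, calls were found among Wnt ligands and Wnt feedback genes. The ligands (7 of 19 tested) had medians of 0.78 and 1.20, the latter the value of Wnt5b, whose mean was 1.85 CPM. At an adjusted p below 0.05 with no limit, 3 were higher and 0 lower in polysomal RNA, where 18% of tested genes passed. In sub-polysomal RNA 5 were higher and 0 lower, where 31.4% passed. Wnt7a and Wnt7b, the most abundant, had changes of 0.33 and 0.52 in polysomal and 0.73 and 1.38 in sub-polysomal RNA, without a call. Wnt10b is the gene counted as higher in both pools. As it passed the filter through the METTL7A1 libraries, with only mock polysomal B of the mock libraries at 1 CPM, it is described without a p. Wnt10b had 1, 7 and 3 counts in mock polysomal A, B and C and 28, 27 and 17 counts in METTL7A1 polysomal D, E and F. The libraries of the genotypes did not overlap in scaled level. In sub-polysomal RNA Wnt10b had 0, 2 and 0 counts in mock and 8, 9 and 14 in METTL7A1 libraries, too few in mock for a stable ratio.

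The feedback and target list (12 of 20 tested) had medians of 0.28 and 0.12 and calls in both directions. Nkd2, which encodes a Dishevelled-binding inhibitor of Wnt signalling, is the gene counted as lower in both pools; as it passed the filter through mock libraries alone, it is described without a p. It had 25, 32 and 33 counts in mock polysomal A, B and C and 0, 1 and 0 counts in METTL7A1 polysomal D, E and F. In sub-polysomal RNA it had 4, 13 and 20 counts in mock and 0, 0 and 1 in METTL7A1 libraries. With its counts added up, Nkd2 kept 1.20% of its mock level in polysomal and 2.41% in sub-polysomal RNA. These values rest on 1 METTL7A1 count in either pool, so its level is not ranked against those of the 4 genes. Its mean of 1.88 CPM lies below the limit of 5 CPM. The ubiquitin ligase gene Rnf43, which removes Wnt receptors, was called higher in polysomal RNA, with a log2 change of 1.60 (SE 0.36, adjusted p = 0.00426, edgeR's quasi-likelihood test with Benjamini-Hochberg adjustment). The Eph receptor gene Ephb3 was called higher in sub-polysomal RNA, with a log2 change of 1.73 (SE 0.21, adjusted p = 1.44e-05, same edgeR test with Benjamini-Hochberg adjustment). In the other pool, Ephb3 had a log2 change of 1.29 (adjusted p = 1.29e-05) and Rnf43 of 1.35 (adjusted p = 0.0579) in the same edgeR test with Benjamini-Hochberg adjustment. Neither was a call.

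The remaining Wnt lists had 0 calls. Medians were -0.13 and -0.20 for acylation and secretion (5 of 10 tested, 1 gene name not being in the table), 0.00 and -0.20 for receptors and coreceptors (14 of 18), -0.82 and -0.63 for secreted antagonists (2 of 15) and -0.05 and 0.21 for cytoplasmic and nuclear components (16 of 17). The 2 antagonists lay apart, Sfrp1 at -1.49 and -1.29 and Kremen1 at -0.14 and 0.04. Sfrp1 fell just short of the limit of 1.5 in polysomal RNA. With Actb scaling the sub-polysomal median was 0.04 for acylation and secretion and 0.06 for receptors, beside 0.26 for all tested genes. The polysomal median was 0.04 for cytoplasmic and nuclear components, beside 0.08 for all tested genes.

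Markers of other cell types had few counts, apart from Cd68 and Pdgfra. The 5 carcinoma epithelium markers Krt8, Krt18, Epcam, Cdh1 and Cldn7 were counted in all 12 libraries, with between 402 counts (Cdh1) and 13694 counts (Krt18). Their sums were 2170, 1970 and 1960 in mock sub-polysomal and 3780, 3200 and 3620 CPM without scaling factors in mock polysomal A, B and C. In METTL7A1 cells they were 2340, 2060 and 1780 in sub-polysomal and 5150, 5260 and 4530 CPM in polysomal D, E and F, so the genotypes overlapped in the sub-polysomal and not in the polysomal pool. Members of the sub-polysomal sum went apart, with log2 changes of 0.81 for Krt8 (adjusted p = 7.37e-04) and -0.71 for Epcam (adjusted p = 0.00709). Both p-values are from edgeR's quasi-likelihood test with Benjamini-Hochberg adjustment, and neither gene was called. Of 6 fibroblast markers, 3 had any count, Pdgfra most (4 to 43 per library), and Col1a2, Pdgfrb and Lum were at 0. Of 4 endothelial, 3 adipocyte and 3 red blood cell markers none reached the filter, with at most 6 counts in a library. The summed endothelial markers, mostly Cdh5, were 0, 0 and 0 in mock sub-polysomal and 0, 0.166 and 0 CPM without scaling factors in mock polysomal A, B and C. In METTL7A1 cells they were 0.545, 0.400 and 0.580 in sub-polysomal and 1.09, 0.435 and 0.560 CPM in polysomal D, E and F, so the genotypes did not overlap, at 1 to 4 Cdh5 counts per METTL7A1 library. Of 5 leukocyte markers 4 had a count, mostly Cd68, with Csf1r at 0 to 8 counts per library, while Ptprc, the pan-leukocyte gene, had 1 count in 1 library and the macrophage gene Adgre1 had 0. The summed leukocyte markers were 11.0, 7.48 and 7.67 in mock sub-polysomal and 6.20, 9.12 and 9.47 CPM without scaling factors in mock polysomal A, B and C. In METTL7A1 cells they were 15.8, 15.8 and 9.09 in sub-polysomal and 26.7, 25.1 and 16.4 CPM in polysomal D, E and F. Cd68, a lysosomal glycoprotein gene, was called higher in polysomal RNA, with a log2 change of 1.56 (adjusted p = 1.10e-04, edgeR's quasi-likelihood test with Benjamini-Hochberg adjustment). The part of any marker list in the levels of the 4 genes was not tested.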

How the data were processed

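The deposited values are raw counts per gene. The authors aligned reads to mm10 with STAR 2.5.3a and counted them with featureCounts on Ensembl genes of GRCm38, as in the paper's methods and the submitters' processing notes. The paper's methods give a stranded, rRNA-depleted protocol for its total RNA libraries and do not say whether the gradient pools were prepared in the same way. The 12 libraries were grouped by genotype and pool from their titles. After the filter of 1 CPM in 3 libraries, a single fit in edgeR 4.0.16 (R 4.3.3) gave every group its own mean on TMM-scaled counts, and differences between means were assessed by edgeR's quasi-likelihood test with Benjamini-Hochberg adjustment over 12224 genes. A call needed an adjusted p below 0.01 and a log2 change beyond 1.5, the study's RNA-Seq thresholds. Log2 CPM used a prior count of 2. Gene types came from GENCODE M21, matched by symbol for 54510 of 55376 genes. Genes named were the 4 members, Mettl7a1, Actb, ranks 1 to 8 of the falls, the 3 most correlated genes per member and neighbours. Paralogues, overlapping genes and markers of the cell type lists were also named. List genes named were those called, the lower genes of the epithelial list, the tested secreted antagonists and creatine supply genes, and Wnt5b, Wnt7a, Wnt7b and Gatm. The members and lists were chosen with earlier results of these data known. Alternatives were DESeq2 1.42.0, limma-voom (limma 3.58.1), other scalings, filters and thresholds, a replicate block and leaving out each replicate.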

Additional observations from a re-analysis of the deposited data

How the results depend on the processing

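The 4 genes were lower in METTL7A1 cells in both pools under every alternative tried, a direction that their choice fixes. Leaving out a replicate moved the sub-polysomal log2 change of Bspry between -7.70 and -6.07, and Actb scaling moved the sub-polysomal level of Ckb to 25.2% of mock. With few counts, the pool ratio in METTL7A1 cells changed sign for Bspry with limma-voom (-0.13) and for Notum with Actb scaling (-0.13); without single replicates it ran from -0.44 to 1.91 for Bspry and from -0.20 to 0.53 for Notum, and that of Ckb in mock cells from -0.09 to 0.38. The cause was not tested. With the threshold loosened to an adjusted p of 0.05 and any log2 change, the mock ratios of Bspry (-0.70) and Notum (0.65) passed, and 5746 genes in mock and 7247 in METTL7A1 cells differed between pools, 2197 between genotypes in polysomal and 3836 in sub-polysomal RNA, with 39 and 56 list genes among them. With at least 10 counts in every library, 509 and 861 genes were called between the pools of mock and METTL7A1 cells and 55 and 92 between genotypes in polysomal and sub-polysomal RNA, and the 4 genes have no value, since none reaches 10 counts everywhere. Without a filter 10 genes were called for the shift. With 10 neighbours on either side, 1 was called in polysomal and 3 in sub-polysomal RNA. By Spearman correlation, 2 of the 12 most similar genes stayed among the 3 nearest. Whether a letter marks a shared lysate is not stated, and deviations within a letter correlated with r from -0.29 to 0.11, so letters were not used as pairs in the main fit; with the replicate block 816 and 1384 genes were called between pools in mock and METTL7A1 cells, 0 for the shift, and no member. DESeq2 gave no adjusted p for the shifts of the members.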
